A study of Panax japonicus with 5 samples.

Results

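The unigenes described here encode enzymes of the phenylpropanoid pathway, which turns phenylalanine into the precursors of lignin, in Panax japonicus, a medicinal plant with a bamboo-like rhizome. Members were the contigs that the study's enzyme table lists under phenylalanine ammonia-lyase (PAL), cinnamate 4-hydroxylase (C4H), 4-coumarate-CoA ligase (4CL) and caffeoyl-CoA O-methyltransferase (CCoAOMT). The rule names 11 enzyme numbers, of which 5 had an entry and the other 6 were not used here. Grouped by Trinity gene, which is called a unigene here, the contigs gave 57 members of 135235 unigenes in all, with 19 under PAL, 11 under C4H, 13 under 4CL and 15 under CCoAOMT. Of these, 1 unigene, TR29937|c0_g1, stands under both PAL and C4H. The table states 144 contigs for the 4 enzymes, and 79 whole names could be read, with 22 of 39 for PAL, 14 of 14 for C4H, 22 of 66 for 4CL and 22 of 25 for CCoAOMT. The sums given below therefore cover part of the 4CL and PAL lists, and an absent contig was not analysed here.

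Flower, leaf, rhizome_Y, rhizome_O and secRoot were taken from a plant aged 7 years that grew outdoors, with no treatment, and each tissue gave 1 library. Rhizome_Y is the young rhizome, at the first bud scar under the stem, rhizome_O is the old rhizome, at the sixth bud scar in the methods, and secRoot is the secondary root. With 1 library per tissue, no difference between tissues was checked against replicates or given a p-value, and all intervals are 95% intervals that cover counting error only. A whole tissue mixes cell types, so fewer cells of a type and less RNA per cell cannot be told apart.

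Phenylpropanoid metabolism begins with PAL, which removes ammonia from phenylalanine to give cinnamate. C4H, a membrane-bound cytochrome P450, adds a hydroxyl group to form p-coumarate, and 4CL joins the acid to coenzyme A. CCoAOMT then methylates caffeoyl-CoA to feruloyl-CoA on the way to the guaiacyl units of lignin, the polymer that stiffens the walls of water-conducting and supporting cells, while p-coumaroyl-CoA also feeds flavonoids.

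The libraries held 2403221 counts in flower, 4614642 in leaf, 2836971 and 3382436 in rhizome_Y and rhizome_O and 4920387 in secRoot. Ribulose-bisphosphate carboxylase, which captures carbon dioxide in green tissue, had summed FPKM of 6026 in leaf and 967 in flower, against 11.6 to 42.7 in the 3 underground tissues. FPKM is the number of read pairs per kilobase of contig, scaled by the aligned pairs of the library. The leaf library stood apart from the others. Of 47667 unigenes with at least 20 counts over the libraries, 36.5% had in leaf at least 20 times the mean FPKM of the 4 other tissues, and 60.7% had in leaf under 5% of that mean. Comparisons with leaf are therefore kept to a paragraph of their own. Scaling the libraries by TMM factors over all 5 libraries, where leaf shares few unigenes with the rest, moved the median log2 ratio of all unigenes by up to 4.01, and median-of-ratios factors moved it by up to 5.12, in both cases for leaf to flower. TMM over all 5 libraries also moved it by 2.71 for the rhizomes and by 2.37 for rhizome_O to secRoot, so that rhizome_O rises against both in every unigene, and the directions of enzyme sums that turned under it are named beside the results. TMM factors without leaf moved it by at most 0.134.

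Taken over all 57 members, FPKM added up to 1097 in flower (interval 1056 to 1140), 1053 in leaf (1023 to 1085), 3920 in rhizome_Y (3846 to 3995), 4504 in rhizome_O (4432 to 4577) and 7427 in secRoot (7348 to 7506). The secondary root was thus 1.89 times above the young rhizome (1.85 to 1.94) and 1.65 times above the old rhizome (1.617 to 1.681), and the young rhizome was 3.57 times above flower (3.42 to 3.73). TMM over all 5 libraries reversed the order of old rhizome and secondary root, with a ratio of rhizome_O to secRoot of 3.16. As a share of all counts, the members took 0.686% in secRoot, 0.440% in rhizome_O, 0.376% in rhizome_Y, 0.112% in flower and 0.0986% in leaf. Of the 57 members, 35 had at least 20 counts over the 5 libraries and 22 had fewer, and 13 were counted in all 5 tissues.

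**Figure D1:**
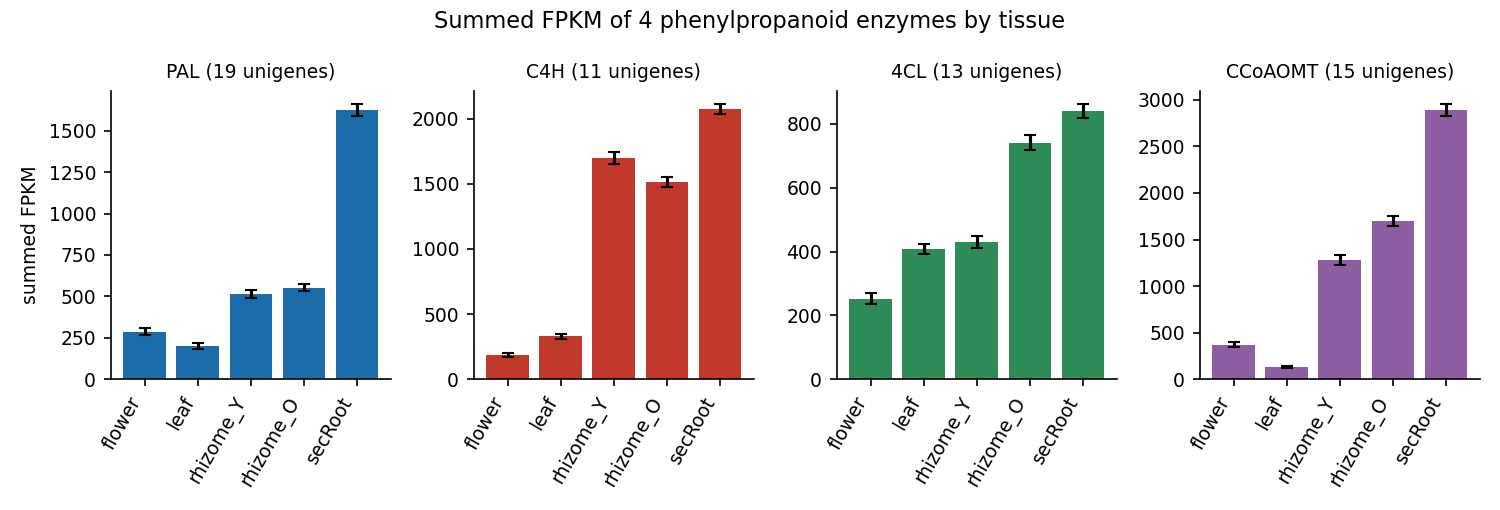
Summed FPKM (vertical axes, linear, starting at 0) of the unigenes of PAL, C4H, 4CL and CCoAOMT in the 5 tissues, 1 library each, with exact Poisson 95% intervals of the counts as error bars. The bar of secRoot is the tallest for each enzyme, at 1626, 2071, 840 and 2890 FPKM, an order that TMM factors over all 5 libraries turned against rhizome_O.

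PAL transcripts were concentrated in the secondary root. Their summed FPKM was 287 in flower, 199 in leaf, 512 and 553 in rhizome_Y and rhizome_O and 1626 in secRoot. Secondary root exceeded the young rhizome 3.17 times (3.01 to 3.35), the largest such ratio of the 4 enzymes, and exceeded the old rhizome 2.94 times (2.81 to 3.08), which TMM over all 5 libraries reversed. The rhizomes lay close together, with a ratio of young to old of 0.927 (0.869 to 0.988), and TMM without leaf put it at 1.02, on the other side of 1. Young rhizome was 1.787 times above flower (1.64 to 1.95).

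A single unigene, TR52357|c2_g1, carried most of the PAL signal outside leaf, between 54.6% and 56.7% in each of the 4 tissues. Its FPKM was 157 in flower, 0.58 in leaf, 280 and 313 in rhizome_Y and rhizome_O and 891 in secRoot, from 684, 6, 1451, 2022 and 7795 counts. It is 2388 bp long, and in secRoot it was the unigene with rank 161 by FPKM. TR15841|c0_g1, of 405 bp, showed the same order at 69.4 FPKM in flower, 154 and 165 in rhizome_Y and rhizome_O and 414 in secRoot, with no count in leaf. Secondary root stood above young rhizome 3.19 times (3.01 to 3.37) for TR52357|c2_g1 and 2.69 times (2.19 to 3.33) for TR15841|c0_g1.

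The third PAL unigene by level, TR28460|c0_g3, is a fragment of 224 bp, and its FPKM rested on few counts: 16.2 in flower (3 counts), 0 in leaf, 23.3 from rhizome_Y (5), 31.1 from rhizome_O (8) and 137 in secRoot (51). Its ratio of secRoot to rhizome_Y, 5.88, has a wide interval of 2.36 to 18.9. The other leading PAL unigenes were those of leaf. TR65486|c0_g2 had 78.6 FPKM in leaf, 2.52 in rhizome_Y, 1.41 in rhizome_O and none in flower or secRoot, and TR64931|c0_g1 had 77.7 in leaf and at most 1.57 elsewhere. Only 1 of the 5 contigs of TR64931|c0_g1 is in the PAL list, and it held 134 of the 334 counts of the unigene in leaf.

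C4H differed from PAL in that both rhizomes came near to the secondary root. Summed FPKM was 187 in flower, 329 in leaf, 1700 and 1513 in rhizome_Y and rhizome_O and 2071 in secRoot. Secondary root was 1.22 times above young rhizome (1.18 to 1.26) and 1.37 times above old rhizome (1.33 to 1.41), the latter reversed by TMM over all 5 libraries. Young rhizome was 9.10 times above flower (8.28 to 10.02), the largest gap between these tissues of the 4 enzymes. It was also 1.124 times above old rhizome (1.08 to 1.17), a direction that TMM over all 5 libraries reversed. As a result the C4H sum divided by the PAL sum, a ratio of levels per length, differed between tissues. It was 0.652 in flower, 1.66 in leaf, 3.32 and 2.74 in rhizome_Y and rhizome_O and 1.27 in secRoot. It sets 14 of 14 C4H names against 22 of 39 for PAL, and pieces of a single gene would each add to a sum. The ratio of TR60300|c1_g1 to TR52357|c2_g1, the leading unigenes outside leaf, was lower. It was 0.402 in flower, 1.536 and 1.518 in rhizome_Y and rhizome_O and 0.663 in secRoot. In secRoot C4H was thus above PAL by the sums but below it by these unigenes.

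The C4H signal outside leaf was spread over 4 unigenes of like FPKM, though not of like counts. In secRoot they had 4887, 4589, 1251 and 249 counts, in the order in which they follow. TR60300|c1_g1 had 63.0 FPKM in flower, 0.90 in leaf, 429 and 476 in rhizome_Y and rhizome_O and 590.4 in secRoot. TR34672|c0_g1 had 30.2, 0.46, 394, 284 and 490.3 FPKM in the same order of tissues. TR60300|c0_g2 had 60.1, 0.74, 427, 379 and 463 FPKM, and TR74435|c0_g1, a fragment of 259 bp, had 33.5, 1.97, 412, 318 and 459 FPKM. All of them were lowest in leaf, next lowest in flower and highest in secRoot, but they did not order the rhizomes alike. TR34672|c0_g1 was 1.387 times higher in the young rhizome than in the old (1.302 to 1.477), whereas TR60300|c1_g1 stood at 0.902 (0.852 to 0.956). Secondary root and young rhizome could not be separated by counting error for TR60300|c0_g2, with a ratio of young rhizome to secondary root of 0.922 (0.838 to 1.01), or for TR74435|c0_g1, at 0.899 (0.721 to 1.116). The fifth, TR60300|c1_g2, was a leaf unigene, with 127 FPKM in leaf, 0.29 in rhizome_O and no count in flower, rhizome_Y or secRoot. TR60300 is a Trinity component with 4 members, and pieces, alleles and copies of 1 gene in it cannot be told apart from the identifiers, so its unigenes are uncertain as separate genes.

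4CL was higher in the old than in the young rhizome. Summed FPKM was 252 in flower, 409 in leaf, 429 and 740.1 in rhizome_Y and rhizome_O and 840 in secRoot, over the 22 names that could be read. Old rhizome was 1.72 times above young rhizome (1.63 to 1.82), the largest gap between the rhizomes of the 4 enzymes. Secondary root was 1.96 times above young rhizome (1.85 to 2.06) and 1.134 times above old rhizome (1.09 to 1.18). This last direction was reversed by TMM over all 5 libraries. Young rhizome was 1.70 times above flower (1.57 to 1.85).

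TR60317|c0_g2 held between 53.5% and 67.5% of the 4CL signal outside leaf. Its FPKM was 135 in flower, 0.82 in leaf, 265 and 499.5 in rhizome_Y and rhizome_O and 484 in secRoot, so it was as high in the old rhizome as in the secondary root within counting error, at a ratio of 1.03 (0.989 to 1.08). The study's table also lists it under oxalate-CoA ligase and o-succinylbenzoate-CoA ligase, which join other acids to coenzyme A. TR87201|c0_g1, of 387 bp, had 38.2 FPKM in flower, 0 in leaf, 84.3 and 120.2 in rhizome_Y and rhizome_O and 221 in secRoot, and here secondary root was 1.84 times above old rhizome (1.45 to 2.35). Without unigenes that the table also places under another enzyme, the 4CL sum in old rhizome was 0.672 of that in secondary root.

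The other leading 4CL unigenes belonged to leaf. TR62911|c0_g2, of 2017 bp, had 139.8 FPKM there from 1205 counts and at most 0.47 in any other tissue. TR60449|c0_g1 had 131 FPKM in leaf, 0.39 in rhizome_Y and no count in the other 3 tissues. TR68516|c0_g1, which is listed under the same 2 other ligases as TR60317|c0_g2, had 127 FPKM in leaf, 0.26 in flower, 2.84 and 5.69 in rhizome_Y and rhizome_O and 0.13 in secRoot. Each of them had its highest FPKM in leaf by at least 22.4 times the next tissue.

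CCoAOMT gave the highest summed FPKM of the 4 enzymes in the secondary root, and its level went up from flower through the young and old rhizome to the root. By share of all counts in secRoot, CCoAOMT (0.168%) stood below C4H (0.224%) and PAL (0.178%). Summed FPKM was 372 in flower, 128 in leaf, 1279 and 1698 in rhizome_Y and rhizome_O and 2890 in secRoot. Secondary root was 2.26 times above young rhizome (2.16 to 2.37) and 1.70 times above old rhizome (1.64 to 1.77), the latter reversed by TMM over all 5 libraries. Old rhizome was 1.33 times above young rhizome (1.26 to 1.40), and young rhizome was 3.44 times above flower (3.14 to 3.77).

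By FPKM, TR41783|c0_g1 was the most abundant of all the members outside leaf. It had 193 FPKM in flower, 1.33 in leaf, 723 and 967 in rhizome_Y and rhizome_O and 1538 in secRoot, where it had rank 74 among all unigenes by FPKM. TR56779|c1_g1 followed the same order with 110.3 FPKM in flower, 0.71 in leaf, 404 and 516 in rhizome_Y and rhizome_O and 899 in secRoot. Secondary root was above young rhizome 2.13 times (1.96 to 2.31) for the former and 2.23 times (2.096 to 2.368) for the latter. A pair of shorter unigenes had higher ratios of secRoot to rhizome_Y and no count in flower, the library with the fewest counts. TR21689|c0_g1, of 248 bp, had 46.1 and 83.0 FPKM in rhizome_Y and rhizome_O and 211 in secRoot, and TR3867|c0_g1, of 276 bp, had 36.0, 37.0 and 131 FPKM. Their ratios of secRoot to rhizome_Y, 4.57 (2.56 to 8.87) and 3.64 (2.01 to 7.12), rest on 13 counts each in rhizome_Y. The interval of TR3867|c0_g1 spans the ratios of both longer unigenes. With 3 counts standing for 0, rhizome_Y was at least 3.67-fold above flower for each short unigene by counts divided by the library total. On that scale TR41783|c0_g1 and TR56779|c1_g1 stood at 4.68 and 3.51. The leaf unigene of this enzyme, TR50417|c0_g1, had 87.7 FPKM in leaf, at most 0.35 in rhizome_O and secRoot and no count in flower or rhizome_Y.

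**Figure D2:**
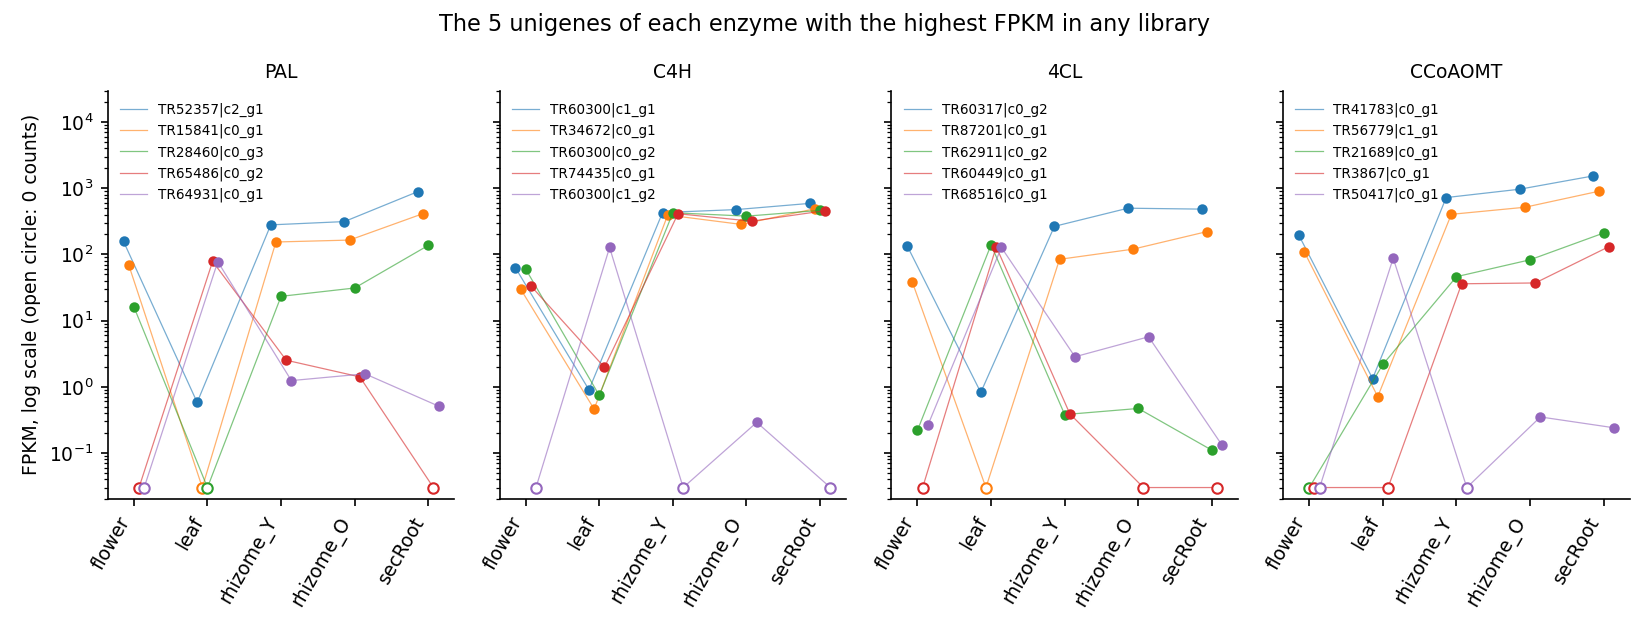
FPKM on a log scale (vertical axis) in the 5 tissues (horizontal axis, 1 library each) of the 5 unigenes per enzyme with the highest FPKM in any library. Filled circles are measured values, open circles stand for 0 counts, and thin lines join the values of 1 unigene and imply no order of tissues. Unigenes such as TR52357|c2_g1, at 891 FPKM in secRoot and 0.58 in leaf, dip in leaf, whereas others such as TR60300|c1_g2, at 127 FPKM, peak there.

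Several members ordered the tissues other than leaf in another way than TR41783|c0_g1, among them C4H unigenes and TR60317|c0_g2 above. Those given here were chosen after their values were seen and are not all of them. TR64291|c1_g1, a CCoAOMT unigene of 1437 bp, had 40.6 FPKM in flower, 0.19 in leaf, 15.4 and 6.63 in rhizome_Y and rhizome_O and 1.95 in secRoot. Its order of the 4 tissues other than leaf was the reverse of that of TR41783|c0_g1: flower was 2.64 times above young rhizome (1.90 to 3.71), young rhizome 2.32 times above old rhizome (1.445 to 3.806), and young rhizome 7.89 times above secondary root (4.17 to 16.2). TR65103|c0_g1, a 4CL unigene also listed under fatty-acyl-CoA synthase, had 32.5 FPKM in flower, 0.12 in leaf, 19.1 and 10.8 in rhizome_Y and rhizome_O and 24.3 in secRoot. TR54806|c0_g1, a PAL unigene of 1184 bp, had 6.07 FPKM in flower, 0 in leaf, 21.1 and 8.41 in rhizome_Y and rhizome_O and 41.2 in secRoot, and differed in the rhizomes alone, with young rhizome 2.51 times above old rhizome (1.59 to 4.05). TR49411|c0_g2, a weak CCoAOMT unigene with 42 counts in all, had 9.50 FPKM in flower and 5.14 to 5.92 in the other tissues except leaf, where it had 0.45.

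By the tissue of the highest FPKM, 19 of the 35 members with at least 20 counts, or 54.3%, were highest in secRoot, against 14.9% of all unigenes past the same minimum. They were 6 of 8 for PAL, 5 of 9 for C4H, 3 of 9 for 4CL and 5 of 9 for CCoAOMT. Leaf was highest for 10 members, against 36.9% of all unigenes. Flower was highest for 3, namely TR64291|c1_g1, TR65103|c0_g1 and TR49411|c0_g2 (22.1% of all), and rhizome_O for 3, namely TR60317|c0_g2, TR60578|c0_g1 and TR53058|c0_g2 (15.0% of all). Rhizome_Y was highest for 0 members, against 11.1% of all unigenes. Without the leaf library the count for secRoot was still 19, whereas TMM over all 5 libraries put 25 members highest in rhizome_O and 0 in secRoot. An order chosen after the values were seen, with secRoot above both rhizomes and both rhizomes above flower, held for 17 of the 35 members, or 48.6%, against 8.66% of all unigenes.

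Calls between tissues other than leaf counted unigenes over 2-fold apart in FPKM, among those with at least 50 counts in the pair of libraries. The minimum is on the pair together, so any unigene can pass it by the library where it is high. SecRoot was over 2-fold above rhizome_Y for 10 of 21 members (9.74% of all unigenes) and below it for 1 (8.31%), TR64291|c1_g1. The 10 included 4 of 5 PAL and 5 of 6 CCoAOMT unigenes, 1 of 5 for 4CL and 0 of 5 for C4H. Among the 10, TR28460|c0_g3, TR21689|c0_g1, TR3867|c0_g1, TR42498|c0_g1 and TR56779|c1_g2 passed by secRoot alone, with 5, 13, 13, 30 and 31 counts in rhizome_Y. SecRoot was over 2-fold above rhizome_O for 8 of 21 (9.46%) and below it for 0 (7.92%). The 8 were 5 of 5 for PAL, 2 of 6 for CCoAOMT, 1 of 5 for 4CL and 0 of 5 for C4H. Among the 8, TR28460|c0_g3, TR3867|c0_g1, TR42498|c0_g1, TR21689|c0_g1 and TR54806|c0_g1 passed by secRoot alone, with 8, 16, 22, 28 and 29 counts in rhizome_O. Under TMM over all 5 libraries 16 of 21 were instead over 2-fold higher in rhizome_O, as were 94.4% of all unigenes. The comparisons share the secRoot library. The median log2 ratio of rhizome_Y to secRoot was -0.96 over the members and -0.03 over all unigenes, and that of rhizome_O to secRoot was -0.80 and 0.06.

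The young rhizome was over 2-fold above flower for 9 of 13 members (14.2% of all unigenes), among them 4 of 4 C4H unigenes, and flower was over 2-fold above it for 1 (15.5%), TR64291|c1_g1. Among the 9, TR74435|c0_g1, TR54806|c0_g1, TR87201|c0_g1 and TR15841|c0_g1 passed the minimum by rhizome_Y alone, with 9, 15, 22 and 43 counts in flower. The median log2 ratio of flower to rhizome_Y was -1.78 over the members and 0.04 over all unigenes. Between the rhizomes few members were over 2-fold apart, and the same was true of all unigenes. Rhizome_Y was over 2-fold above rhizome_O for 2 of 18 (6.12%), TR54806|c0_g1 and TR64291|c1_g1, and rhizome_O over 2-fold above rhizome_Y for 0 of 18 (5.93%). Under TMM over all 5 libraries all 18 were over 2-fold higher in rhizome_O, as were 98.2% of all unigenes. Just under that limit lay TR60578|c0_g1, a 4CL unigene 1.99 times higher in the old rhizome (1.08 to 3.82), and TR60317|c0_g2, 1.88 times higher (1.774 to 1.997). The median log2 ratio of rhizome_Y to rhizome_O was -0.16 over the members and -0.07 over all unigenes.

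**Figure D3:**
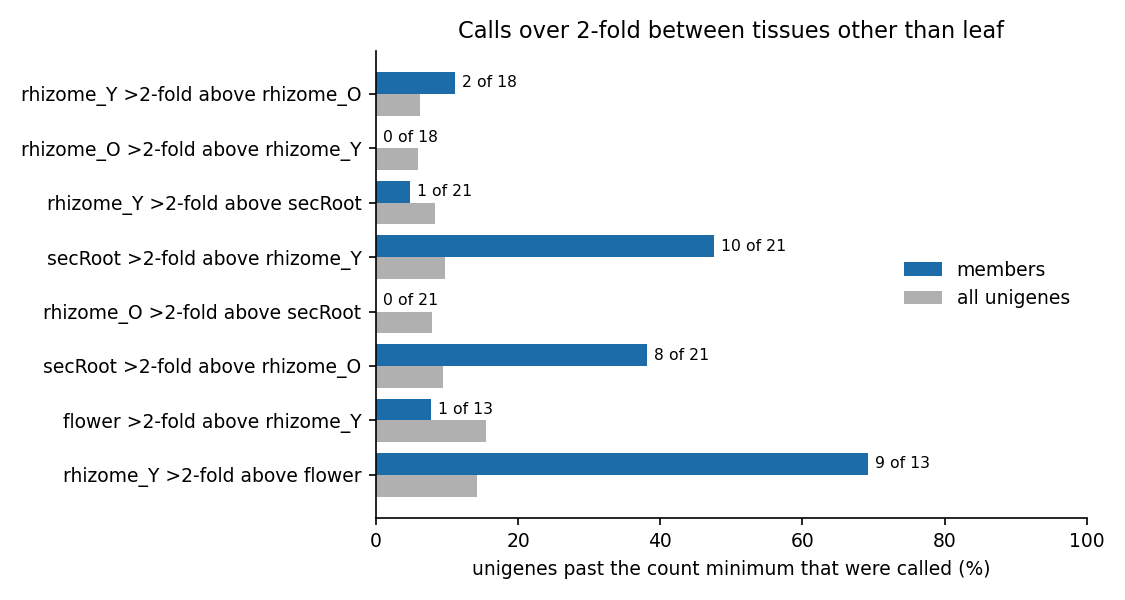
Percent of unigenes past the count minimum that were over 2-fold apart in FPKM (horizontal axis) in each direction between tissues other than leaf (vertical axis), for the members (blue, with their numbers) and all unigenes (grey). The members exceed the grey bars most for rhizome_Y above flower, with 9 of 13 against 14.2%, and for secRoot above rhizome_Y, with 10 of 21 against 9.74%. Over 2-fold higher in rhizome_O than in rhizome_Y were 0 of 18, against 5.93%. TMM over all 5 libraries turned that count into 18, with 98.2% of all unigenes then called.

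In leaf the members split into a part found almost there alone and a part nearly missing there, by limits chosen with the values known. Of the 35 members with at least 20 counts, 10 had in leaf at least 20 times the mean of the other tissues and 24 had under 5% of it, against 36.5% and 60.7% of all unigenes, so the split itself was that of the whole library. Both parts held unigenes of all 4 enzymes. The 10 were 2 PAL, 4 C4H, 3 4CL and 1 CCoAOMT unigenes, and the 24 were 6, 5, 6 and 7. The 10 leaf unigenes added up to 945 FPKM in leaf, 0.48 in flower, 7.37 and 9.78 in rhizome_Y and rhizome_O and 0.99 in secRoot. The other 24 added up to 10 FPKM in leaf, from 36 counts, and to 1046 in flower, 3879 and 4450 in rhizome_Y and rhizome_O and 7343 in secRoot. Only TR49411|c0_g2 fell in neither part.

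By summed FPKM, leaf and flower differed by less than counting error, with a ratio of leaf to flower of 0.960 (0.915 to 1.01), but the ratio depends on the scaling: it was 0.804 with TPM, 77.1 with TMM and 83.0 with median-of-ratios factors over all 5 libraries. Per enzyme the ratio was 0.694 (0.620 to 0.776) for PAL, 1.76 (1.58 to 1.97) for C4H, 1.62 (1.503 to 1.757) for 4CL and 0.344 (0.302 to 0.392) for CCoAOMT. Both scalings over all 5 libraries raised each of these ratios as well, to 142 and 152 for C4H and to 130.5 and 140.5 for 4CL. They reversed the directions of PAL and CCoAOMT, and that of PAL was reversed also without TR52357|c2_g1, at 1.53. Of 18 members past the minimum, 9 were over 2-fold higher in leaf and 9 in flower, against 55.2% and 44.4% of all unigenes. Those higher in flower fell to 4 under TMM (28.4% of all) and to 3 under median-of-ratios factors (26.8%), while those higher in leaf stayed at 9 in number. On the scale of counts divided by the library total, where 3 counts stand for a library at 0, TR60449|c0_g1 was at least 161-fold higher in leaf than in flower, TR60300|c1_g2 at least 102-fold, TR50417|c0_g1 at least 59.5-fold and TR64931|c0_g1 at least 58.0-fold. In the other direction and on the same scale, TR52357|c2_g1 was 219-fold higher in flower (100.1 to 599) and TR60317|c0_g2 166-fold (83.8 to 386). The median log2 ratio of leaf to flower was 1.36 over the members and 7.14 over all unigenes, but with as many members up as down its sign is not settled: with no minimum count it was -4.02 over the members.

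**Figure D4:**
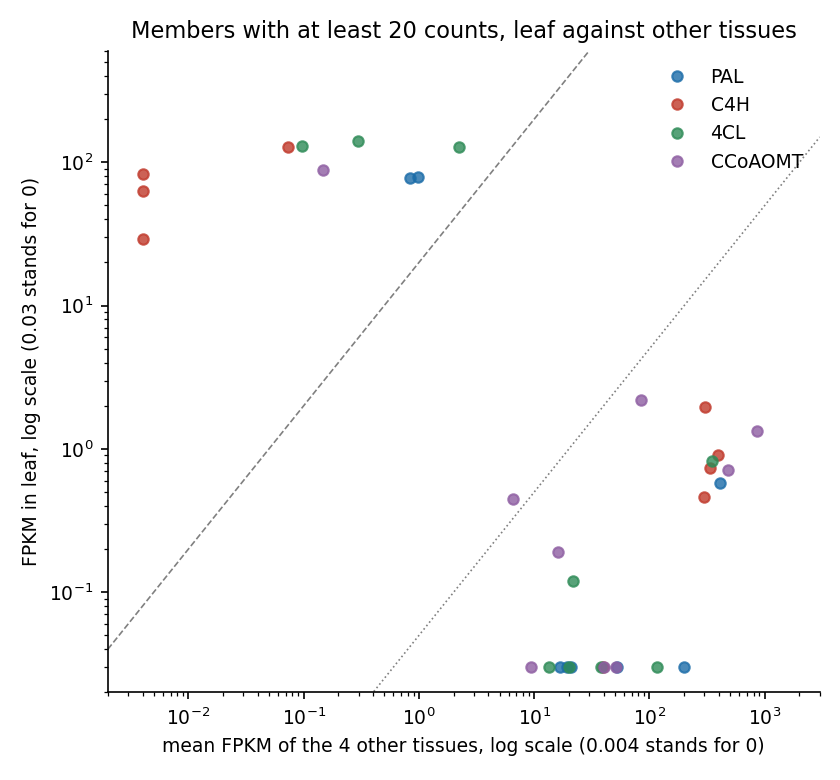
FPKM in leaf (vertical axis, log scale) against the mean FPKM of the 4 other tissues (horizontal axis, log scale) for the 35 members with at least 20 counts, coloured by enzyme, with values of 0 drawn at the edge as the axes state. The dashed line marks 20 times the mean and the dotted line 5% of it: 10 members lie above the former, 24 below the latter and 1 between them.

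Of the weak members, the 22 with under 20 counts added up to between 28.5 FPKM in rhizome_Y and 98.2 in leaf. They include TR29937|c0_g1, the unigene under both PAL and C4H, which had 11.8 FPKM in leaf from 10 counts and no count elsewhere. In all, 22 of the 57 members had no count in leaf and 9 were counted in leaf alone, against 52.4% and 33.7% of the unigenes counted in any library. Many members are short: 30, or 52.6%, were under 500 bp, against 67.9% of all unigenes, and the median length was 405 bp against 356 bp. In 6 Trinity components, 16 members share a component with another member, and 10 of these are under 500 bp. FPKM of unigenes of 224 to 276 bp rests on a small effective length and is less certain than its count.

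The counts of a member can lie on several contigs. In TR52357|c2_g1 the contig of 2388 bp took 1358 of the 1451 counts from rhizome_Y, 1921 of 2022 from rhizome_O and 7217 of 7795 from secRoot. The 4 contigs of TR60317|c0_g2 shared its counts nearly evenly, with 22.2% to 27.6% each in the underground tissues. TR56779|c1_g1, chosen after its values were seen, changed its makeup more. Its contig of 1358 bp took 12.3% of the counts in flower (Wilson interval 9.10% to 16.3%), 18.4% (16.4% to 20.6%) in rhizome_Y, 21.6% (19.9% to 23.5%) in rhizome_O and 24.8% in secRoot (23.6% to 26.0%), while that of 1211 bp took 46.9% in flower (41.4% to 52.3%) and 36.6% in secRoot (35.3% to 37.9%). Assignment of pairs to like contigs is an estimate, and its error is not in these intervals.

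Phenylalanine comes from the shikimate pathway, which starts with DAHP synthase and leads through chorismate to arogenate. Its first enzyme stood at the level of the lignin enzymes, with the order of tissues that C4H had: DAHP synthase summed to 405 FPKM in flower, 427 in leaf, 1574 and 1481 in rhizome_Y and rhizome_O and 2029 in secRoot, over 9 unigenes. TR3266|c0_g1, the highest of them, had 37.5, 1.16, 380.2, 365 and 616 FPKM. Its secRoot sum was 5.01 times that of flower and 1.29 times that of rhizome_Y.

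The later steps were at far lower levels. EPSP synthase summed to 254 FPKM in secRoot, 161 in rhizome_Y and 74.3 in flower, led by TR62917|c0_g1 at 228 FPKM in secRoot. Chorismate synthase summed to 255, 155, 63.5 and 140.4 FPKM in these tissues, led by TR51914|c0_g1 at 254 FPKM in secRoot. Of its 5 unigenes, 4 were highest in leaf (36.9% of all unigenes) and 1 in secRoot (14.9%). The lists of 3-dehydroquinate dehydratase and shikimate dehydrogenase, activities that plants carry on 1 protein, share all their 7 unigenes, which summed to 172 FPKM in secRoot, 107 in rhizome_Y and 79.1 in flower, led by TR66013|c1_g1. By summed FPKM, a pair of steps was highest in leaf. 3-dehydroquinate synthase, led by the leaf unigene TR53531|c0_g1, had 261 FPKM in leaf and 76.1 to 85.3 elsewhere. Shikimate kinase, led by TR55969|c0_g1, had 140.4 in leaf, 72.0 in secRoot, 46.2 in rhizome_Y and 45.8 in flower. Prephenate aminotransferase, led by TR56364|c0_g1, ranged from 98.1 FPKM in flower to 145.5 in rhizome_Y.

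Counted over these 8 enzymes, 53 unigenes were listed and 37 had at least 20 counts. Of these, 11 were highest in secRoot and 18 in leaf, or 29.7% and 48.6%, beside 14.9% and 36.9% of all unigenes. Young rhizome was over 2-fold above flower for 8 of 15 (14.2% of all unigenes), while secRoot was over 2-fold above rhizome_Y for 1 of 16 (9.74% of all). The median log2 ratio of rhizome_Y to secRoot was -0.34 over this list and -0.96 over the members.

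**Figure D5:**
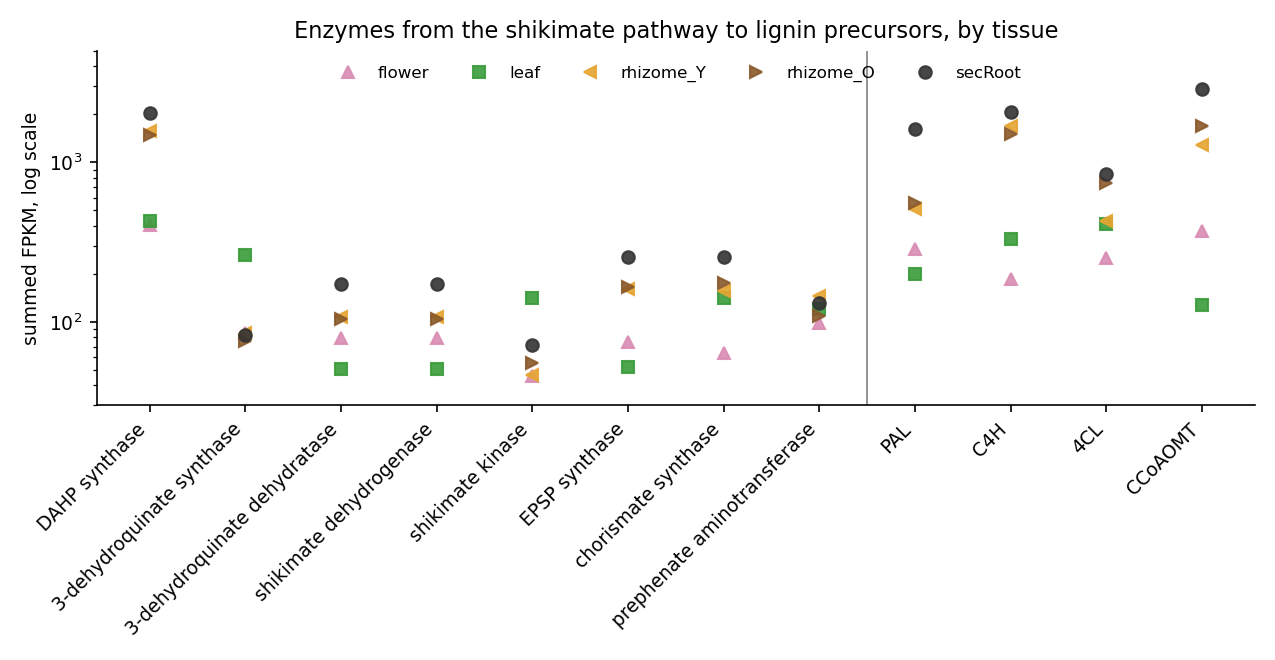
Summed FPKM (vertical axis, log scale) of 8 enzymes of the shikimate pathway, left of the line, and of PAL, C4H, 4CL and CCoAOMT, right of it, in the 5 tissues, 1 library each. DAHP synthase, at 2029 FPKM in secRoot and 405 in flower, lies in the range of the lignin enzymes, while the 7 enzymes after it stay at or below 261 FPKM in every tissue.

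Other branches compete for chorismate or arogenate. Anthranilate synthase, the entry to tryptophan, summed to 79.1 FPKM in flower, 355 in leaf, 61.6 and 71.7 in rhizome_Y and rhizome_O and 67.0 in secRoot, led by TR59588|c0_g1 with 228 FPKM in leaf. Phosphoribosylanthranilate isomerase, listed next, summed to 84.9 FPKM in flower, 86.2 in leaf and 40.3 to 56.6 in the underground tissues. Indole-3-glycerol-phosphate synthase summed to 147 FPKM in flower, 72.3 in leaf and 46.3 to 56.0 in the underground tissues. Both were led by TR64354|c0_g1, which had 66.0 FPKM in flower, 41.6 and 30 in rhizome_Y and rhizome_O, 26.9 in secRoot and 0.51 in leaf. Arogenate dehydrogenase, which makes tyrosine, summed to 15.8 to 19.95 FPKM in the tissues other than leaf and 44.1 in leaf, and its highest unigene, TR63648|c0_g1, had 15.6 FPKM in rhizome_Y. Of the 18 unigenes with at least 20 counts among the 26 listed, 1 was highest in secRoot (14.9% of all unigenes), 6 in flower (22.1%) and 9 in leaf (36.9%). Over 2-fold higher in secRoot than in rhizome_Y were 0 of 6, which is too few to set apart from the 9.74% of all unigenes.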

How the data were processed

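RNA of 5 tissues, 1 library each, was measured by paired-end sequencing. Per the methods, reads passed Trimmomatic, were pooled over tissues for a Trinity 2.0.6 assembly, and were placed on the contigs by Bowtie 2.0 for RSEM. No source used here names the version of Trimmomatic or of RSEM. The deposited expected counts are read pairs per contig, all whole. The deposited FPKM divide them by effective length and depth, and the deposited TPM rescale these to a fixed sum. Enzyme numbers came from the authors' Blast2GO 3.0 annotation, and names broken off in shortened entries were left out. A combined FPKM table was not used.

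Counts, FPKM and TPM were summed over all contigs of a Trinity gene. Calls were over 2-fold in FPKM with at least 50 counts in the pair, and the highest tissue needed at least 20 counts over the 5 libraries. Median log2 ratios used FPKM with 0.1 added. Intervals are exact Poisson for sums, exact conditional for ratios and Wilson for shares, at 95%. A count of 0 was taken to allow 3. Depth was 2403221 to 4920387 counts per library. Members and lists were chosen with earlier results of these data known. Named were, per enzyme, the 5 unigenes with the highest FPKM in any library, the highest in leaf and any under 2 enzymes, and per supply list the highest unigene; exceptions are marked as chosen after their values were seen. With 1 library per tissue no test was run. Intervals and calls were tested on simulated Poisson counts, the error that the intervals assume, with true changes larger than the fold limit. The simulation could not test errors of contig assignment, effective length or scaling, which it did not include. Alternatives were other units, scalings, minimums, folds, pseudocounts and contig choices. The tools were Python 3.11.15 (pandas 2.3.3, numpy 2.4.6, matplotlib 3.10.9, scipy 1.17.1), and edgeR 4.0.16 and DESeq2 1.42.0 in R 4.3.3 (scaling factors only).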

Additional observations from a re-analysis of the deposited data

How the results depend on the processing

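With 1 library per tissue, there is no spread between samples to set beside these alternatives, depth limits weak members to wide intervals, and the cause of each change was not tested unless the setting itself is the change. No paired analysis was possible because each tissue has 1 library. Leaving out a replicate was not possible for the same reason. Below, ratios of summed FPKM are given in the order PAL, C4H, 4CL, CCoAOMT where all 4 left their counting intervals, and values not given stayed inside them.

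TMM factors over all 5 libraries moved every ratio of sums. Rhizome_Y to rhizome_O came to 0.141, 0.171 (reversed), 0.0880 and 0.114, and rhizome_Y to secRoot to 0.249, 0.648, 0.404 and 0.350. Rhizome_O to secRoot was reversed for all 4 enzymes, at 1.77, 3.80, 4.59 and 3.06. Flower to rhizome_Y came to 0.311, 0.0611, 0.326 and 0.162, and leaf to flower to 55.7 (reversed), 142, 130.5 and 27.6 (reversed). With the same factors, members highest in rhizome_O numbered 25, in flower 0 and in secRoot 0. Those over 2-fold higher in rhizome_O than in rhizome_Y were 18 of 18 (98.2% of all unigenes) and than in secRoot 16 of 21 (94.4%). In the opposite directions there were 0 (0.408% and 0.299% of all unigenes). Flower was over 2-fold above leaf for 4 of 18 members (28.4% of all unigenes) and above rhizome_Y for 0 of 13 (7.36%).

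TMM without leaf, a setting added after the data were seen, gave 1.02 (reversed), 1.23, 0.636 and 0.827 for rhizome_Y to rhizome_O. It gave 0.311, 0.669, 0.807 and 0.538 for rhizome_O to secRoot. For flower to rhizome_Y it gave 0.510 for PAL, 0.535 for 4CL and 0.265 for CCoAOMT. Median-of-ratios factors gave 1.17 for C4H between the rhizomes. They gave 0.294, 0.767, 0.478 and 0.413 for rhizome_Y to secRoot and 0.305, 0.654, 0.790 and 0.526 for rhizome_O to secRoot. For leaf to flower they gave 60.02 (reversed), 152, 140.5 and 29.8 (reversed). Flower was then over 2-fold above leaf for 3 of 18 members (26.8% of all unigenes).

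Counts divided by the library total gave, for rhizome_Y to secRoot, 0.785 for C4H and 0.548 for 4CL, for rhizome_O to secRoot 0.372 for PAL and 0.993 for 4CL, for flower to rhizome_Y 0.321 for CCoAOMT, and for leaf to flower 0.361 for PAL and 1.101 for C4H. For the sums of single enzymes, TPM changed leaf to flower alone, to 0.581, 1.477, 1.361 and 0.288. So did the use of listed contigs alone, to 0.513 for PAL, 1.77 for 4CL and 0.407 for CCoAOMT. With the contig of most counts, 4CL came to 0.447 for rhizome_Y to secRoot, 0.757 for rhizome_O to secRoot and 2.09 for leaf to flower, CCoAOMT to 0.253 for flower to rhizome_Y and 0.691 for leaf to flower, and PAL to 0.603 for leaf to flower.

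Without the highest unigene of each enzyme, rhizome_Y to rhizome_O was 1.23 for C4H and 0.681 for 4CL. For C4H, 4CL and CCoAOMT, rhizome_Y to secRoot was then 0.858, 0.460 and 0.411, rhizome_O to secRoot 0.700, 0.676 and 0.540, and flower to rhizome_Y 0.0974, 0.714 and 0.322. Leaf to flower was then 1.53 (reversed), 2.65, 3.49 and 0.708. Without unigenes also listed under another enzyme, 4CL came to 0.651 for rhizome_Y to rhizome_O, 0.437 for rhizome_Y to secRoot, 0.672 for rhizome_O to secRoot, 0.522 for flower to rhizome_Y and 3.75 for leaf to flower.

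With a 3-fold limit, secRoot was above rhizome_Y for 4 of 21 members (3.89% of all unigenes) and above rhizome_O for 4 of 21 (4.11%). At that limit rhizome_Y was above rhizome_O for 0 of 18 (2.21%) and flower above rhizome_Y for 0 of 13 (8.81%). A minimum of 100 counts left 0 of 11 members over 2-fold higher in rhizome_Y than in rhizome_O (5.54% of all unigenes) and 0 of 16 than in secRoot (7.42%). A minimum of 20 gave 1 of 24 over 2-fold higher in rhizome_O than in secRoot (10.3%). With no minimum, 22 members were highest in leaf, 5 in flower, 5 in rhizome_O and 3 in rhizome_Y, and the median log2 ratio of rhizome_O to secRoot was -0.30.

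For the sum over all 4 enzymes, rhizome_Y to rhizome_O came to 0.132 with TMM, 0.9075 with median-of-ratios factors and 0.955 with TMM without leaf. It was 0.929 with the contig of most counts, 0.912 without unigenes under another enzyme and 0.904 without the highest unigene. Rhizome_Y to secRoot was 0.417 with TMM, 0.493 with median of ratios, 0.545 with the contig of most counts, 0.543 without the highest unigene and 0.548 with counts divided by the library total. Rhizome_O to secRoot was 3.16 (reversed) with TMM, 0.543 with median of ratios, 0.5555 with TMM without leaf, 0.586 with the contig of most counts, 0.576 without unigenes under another enzyme and 0.642 with counts. Flower to rhizome_Y was 0.156 with TMM, 0.262 with median of ratios, 0.255 with TMM without leaf, 0.247 with the contig of most counts, 0.253 without unigenes under another enzyme, 0.264 with TPM and 0.298 with counts. Leaf to flower was 77.1 with TMM, 83.0 with median of ratios, 1.144 with the contig of most counts, 1.16 without the highest unigene, 0.804 with TPM and 0.879 with counts.

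The median log2 ratio of leaf to flower was 0.80 with 1 FPKM added and -4.02 with no minimum count.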
